A study of Mus musculus with 8 samples.

Results

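The genes described here encode the proteins of the cytosolic ribosome. They were chosen by name: every gene with a probe set of its own whose symbol is Rpl, Rps or Rplp followed by a number (with or without a closing a or x), and Rpsa. Of the 19411 genes in the table, 53 were chosen, 33 of the large (60S) subunit and 20 of the small (40S) subunit. All 53 passed a filter that left out the lowest 30% of genes by mean signal, which kept 13587 genes for testing. Where a gene had several probe sets, as 38 of the 53 did, the probe set with the highest mean over all arrays stood for it. A further 16 genes that match the name rule, Rpl3, Rpl13a, Rpl32 and Rpl39 among them, were present only in probe sets that the platform assigns to several genes and are not among the 53.

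RNA of C57/Bl6 mice was hybridised to Affymetrix gene arrays, 1 array per sample. The groups were sperm of low protein males (2 arrays), of caloric restriction males (1 array) and of control diet males (3 arrays), and epididymal tissue of 1 low protein and 1 control sample. Males of the low protein and control groups were on their diet until 9 to 12 weeks of age, and no age is stated for caloric restriction. Sperm were let out of the punctured caudal epididymis and used only where microscopy put their purity above 99.5%. Nothing in the labels ties the samples of a group to different animals. The p-values therefore rest on the scatter among these arrays, and that scatter may be technical.

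A ribosome has 1 copy of nearly every protein described here, and the stalk proteins Rplp1 and Rplp2 are among the exceptions. Ribosomal protein mRNAs are among the most abundant of growing cells and typically begin with a run of pyrimidines, the 5′ terminal oligopyrimidine motif, through which their translation follows nutrient and mTOR signals. A maturing spermatid sheds most of its cytoplasm, ribosomes included, so that sperm RNA is mostly a remainder of earlier stages. The X chromosome is silenced in male meiosis, and germ cells of the mouse use autosomal copies such as Rpl10l in place of X-linked ribosomal protein genes such as Rpl10.

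Values are log2 intensities made with RMA, and a difference of 1 is a 2-fold change in signal. The number of arrays limits the precision. Marker genes separated the tissues by their labels. The median level of 19 tested spermatid and sperm genes was 9.88 to 11.15 on the 6 sperm arrays, against 6.23 and 6.52 in the epididymis. Smooth muscle markers had medians of 6.72 to 7.26 in sperm, against 10.18 and 10.21 in the epididymis, with 15 of 15 lower in sperm by limma. The second low protein sperm array stood apart. Its correlation with the other sperm arrays over tested genes was 0.71 to 0.86, against 0.85 to 0.98 for pairs of the other 5. Most medians and counts of calls of the members that include it are therefore also given without it, and both low protein arrays are described singly. The test of caloric restriction against control sperm takes part of its spread from this array and is given only with it.

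The ribosomal protein genes gave some of the strongest signals of every array. Their median level was 10.57 and 9.59 on the low protein sperm arrays, 10.28 on the caloric restriction sperm array and 10.41, 10.64 and 10.59 on the control sperm arrays. It was 10.57 in both the low protein and the control epididymis. On each array the median member lay between the 98.6th and the 99.5th percentile of all 19411 genes, in sperm as in epididymis. Low protein array 2 lay about 1 unit below the other low protein array and below all 3 control arrays, and the caloric restriction array lay below all 3 controls by a smaller amount. In low protein sperm the mean of the array medians was 10.08 ± 0.69 (SD, n = 2), and in control sperm it was 10.55 ± 0.12 (SD, n = 3). Fewer cells of a type and less RNA per cell cannot be told apart in such bulk samples.

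**Figure D1:**
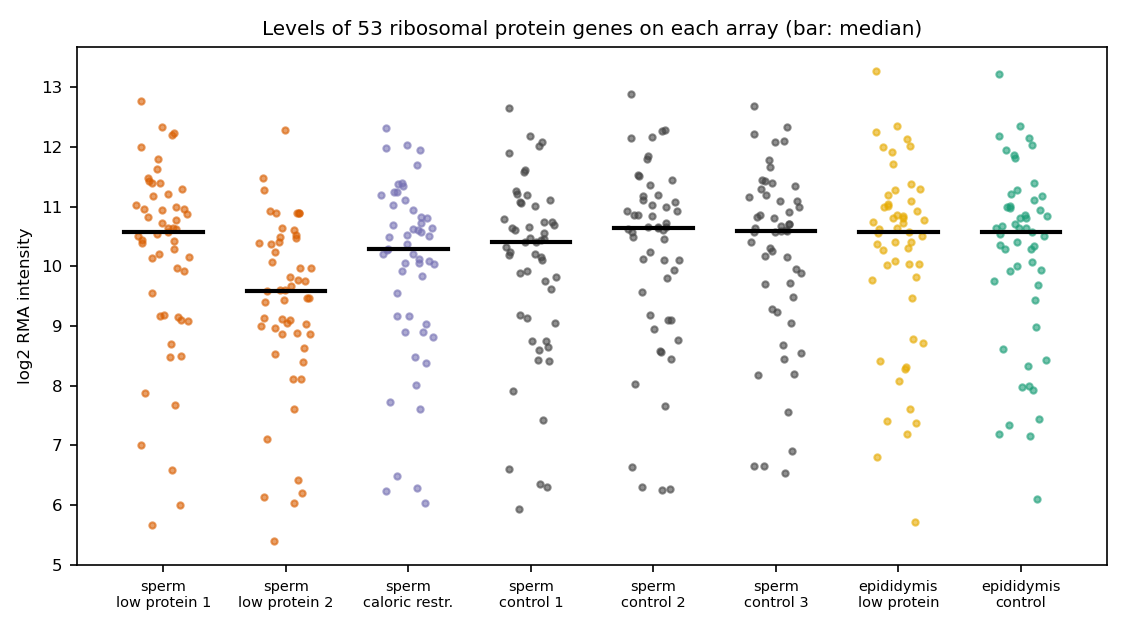
Log2 RMA intensity (y axis) of the 53 ribosomal protein genes on each of the 8 arrays (x axis), 1 point per gene, with the median as a bar. The median of low protein sperm array 2 was 9.59, and on the other 7 arrays the medians were 10.28 to 10.64.

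The probe sets with the strongest and the weakest mean signal show the range, although signals of different probe sets do not compare transcript amounts. Rpl10, which joins the 60S subunit late in its assembly and is X-linked, had levels of 12.78 and 11.48 in low protein sperm, 12.32 in caloric restriction sperm and 12.65, 12.88 and 12.68 in control sperm. It was brighter on both epididymis arrays, at 13.28 in the low protein and 13.23 in the control sample. Rpl21, a large subunit protein, had 12.34 and 12.28 in low protein sperm, 12.03 in caloric restriction sperm and 12.18, 12.16 and 12.08 in control sperm, with 12.36 in each epididymis sample. Rpl21 thus kept a nearly level signal where Rpl10 was over 1 unit lower on low protein array 2 than in any control. Rplp1, a stalk protein that helps recruit translation factors, had 11.99 and 11.27 in low protein sperm, 11.99 in caloric restriction sperm and 11.90, 12.15 and 12.21 in control sperm. Its epididymis levels were 12.25 in the low protein and 12.18 in the control sample.

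The 3 weakest members lay near the filter level of 5.69. Rpl12, a protein at the base of the stalk, had 5.99 and 6.20 in low protein sperm, 6.03 in caloric restriction sperm and 6.30, 6.27 and 6.91 in control sperm. Rpl30 had 5.66 and 5.39 in low protein sperm, 6.49 in caloric restriction sperm and 5.93, 6.29 and 6.65 in control sperm. Both genes were lower on both low protein arrays than on any control array, while their control arrays had an SD of 0.36, above the median member SD of 0.15. Rplp2, the partner of Rplp1 in the stalk, had 6.58 and 6.04 in low protein sperm, 6.28 in caloric restriction sperm and 6.35, 6.24 and 6.53 in control sperm, so its groups overlapped.

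The first question of the design was whether a low protein diet of the father goes with a change in sperm RNA. Set against the control sperm mean, the ribosomal protein genes of the 2 low protein arrays went different ways. On array 1 the median difference was 0.08 and 39 of 53 genes were above the control mean, and differences ran from -0.63 to 0.37. On array 2 the median difference was -0.91, 43 of 53 genes were below the control mean, and differences ran from -1.54 to 0.38. On that array 21 genes were more than 1 unit lower and 37 more than 0.5 lower, against 0 and 1 on array 1. Over all genes tested, 9.49% were more than 1 unit lower and 24.4% more than 0.5 lower on array 2, against 0.0% and 2.33% on array 1. Over all 13587 genes the median difference was -0.08 on array 1 and -0.01 on array 2. The median SD of a member between the 2 low protein arrays was 0.68, against 0.15 between the 3 control arrays.

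By limma, no ribosomal protein gene passed an adjusted p of 0.05 between low protein and control sperm, where 0.0% of all genes tested passed in the higher and 0.0% in the lower direction. The median log2 change over the 53 genes was -0.43, with 42 of 53 negative, against -0.06 over all genes. At an unadjusted p of 0.05, 1 of the 53 genes passed (Rpl30, lower), where 25.1% of all genes did. The largest negative changes were those of Rps4x (-0.77 ± 0.39, SE), Rpl30 (-0.77 ± 0.23), Rpl5 (-0.75 ± 0.39), Rpsa (-0.73 ± 0.40) and Rps2 (-0.72 ± 0.40), with adjusted p by limma of 0.134 for Rpl30 and 0.255 to 0.290 for the other 4. The largest positive changes were those of Rpl36 (0.27), Rps19 (0.22), Rps28 (0.21), Rps15 (0.19) and Rpl29 (0.18). Without low protein array 2 the median of the 53 changes was 0.08. Without low protein array 1 it was -0.91, and 36 of the 53 genes passed as lower, where 22.9% of all genes passed as lower and 15.0% as higher. That fit sets a single low protein array against the controls and takes its spread from the 3 control arrays alone.

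Array by array the members split as follows. On array 2, 42 of 53 genes were below all 3 control arrays, where 42.5% of all genes tested were. A further 6 were above all 3 controls (Rpl21, Rpl36, Rps12, Rps15, Rps19 and Rps28), where 39.7% of all genes were. On array 1, 3 genes were below all controls (Rpl12, Rpl22 and Rpl30), where 36.9% of all genes were, and 15 were above them, where 22.7% of all genes were. Both low protein arrays were below all controls for those same 3 genes (background 22.4%) and above all controls for 5, namely Rpl21, Rpl36, Rps15, Rps19 and Rps28 (background 18.8%). The share of members that moved with both arrays was thus below that of all genes in either direction.

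**Figure D2:**
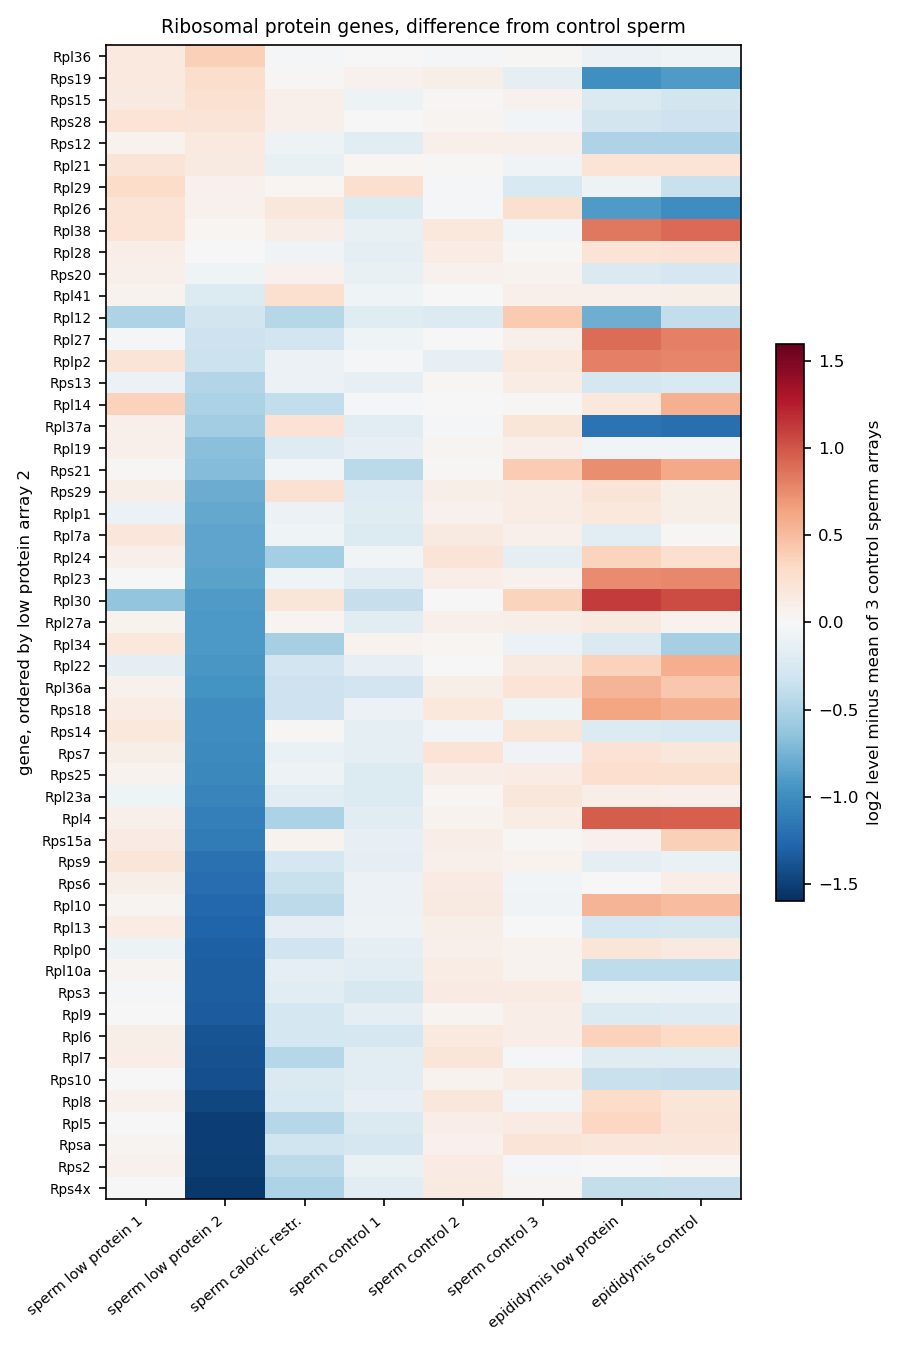
Log2 level of each ribosomal protein gene minus its mean over the 3 control sperm arrays (colour), with arrays in columns and the 53 genes in rows ordered by low protein array 2. The column of low protein array 2 runs from 0.38 (Rpl36) to -1.54 (Rps4x), while on low protein array 1 all genes lie between -0.63 and 0.37.

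The members with the lowest values on low protein array 2 sit in different places of the ribosome. Rps4x, an X-linked small subunit protein, had levels of 11.30 and 9.76 in low protein sperm, 10.81 in caloric restriction sperm and 11.12, 11.45 and 11.35 in control sperm. Array 2 was lower than every other sperm array for this gene, and array 1 lay within the controls. Rps2, a core protein of the 40S subunit, had 12.20 and 10.61 in low protein sperm, 11.70 in caloric restriction sperm and 12.02, 12.26 and 12.10 in control sperm. Rpsa, a 40S protein also known as the laminin receptor, had 10.43 and 8.88 in low protein sperm, 10.06 in caloric restriction sperm and 10.11, 10.46 and 10.59 in control sperm. Rpl5, which enters the 60S subunit together with the 5S rRNA, had 10.97 and 9.47 in low protein sperm, 10.51 in caloric restriction sperm and 10.74, 11.08 and 11.10 in control sperm. All 4 genes shared the pattern of Rps4x, with low protein array 1 among the controls and array 2 alone far below.

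A smaller number of members held their level on array 2. Rpl36 had 10.30 and 10.52 in low protein sperm, 10.12 in caloric restriction sperm and 10.15, 10.11 and 10.16 in control sperm, so both low protein arrays were above the controls. Rps19, whose loss of 1 copy causes Diamond-Blackfan anemia in people, had 8.50 and 8.63 in low protein sperm, 8.37 in caloric restriction sperm and 8.41, 8.45 and 8.19 in control sperm. Rps28 had 9.97 on both low protein arrays, 9.84 in caloric restriction sperm and 9.75, 9.80 and 9.72 in control sperm. Rps15, whose tail reaches the decoding site, had 10.78 and 10.89 in low protein sperm, 10.72 in caloric restriction sperm and 10.55, 10.65 and 10.71 in control sperm. These differences from the control mean were 0.38 or less, and none passed the test by limma.

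The start sites of some of these genes are shown because the pyrimidine run at the start is the shared feature for which this gene class is known. RefSeq start sites (GRCm38.p6) were found for 42 of the 53 genes, with 49 starts. The windows below hold 30 bases around a start, 15 on each side, 5′ to 3′ on the strand of the gene, and capitals mark the longest pyrimidine run. The genes were chosen after their values were seen, the first 4 from those low on low protein array 2 and the last 4 from those near or above the control mean there. Their positions are chrX:102189377-102189406 (minus strand) for Rps4x, chr17:27635230-27635259 (minus) for Rps10, chr4:86857353-86857382 (minus) for Rps6, chr17:33955651-33955680 (minus) for Rps18, chr7:4792950-4792979 (plus) for Rpl28, chr11:114668565-114668594 (plus) for Rpl38, chr17:33824548-33824577 (minus) for Rps28 and chr7:24884577-24884606 (plus) for Rps19, which has 3 RefSeq starts.
Rps4x: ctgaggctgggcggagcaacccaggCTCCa
Rps10: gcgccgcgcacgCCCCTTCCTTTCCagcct
Rps6: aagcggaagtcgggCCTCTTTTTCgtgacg
Rps18: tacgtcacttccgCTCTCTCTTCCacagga
Rpl28: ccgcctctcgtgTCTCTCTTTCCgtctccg
Rpl38: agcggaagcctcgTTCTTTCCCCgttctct
Rps28: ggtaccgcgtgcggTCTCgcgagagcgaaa
Rps19: tccgaaaTCTCgcgagactcgacgcccgac

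Runs of 10 to 13 pyrimidines crossed the start of Rps10, Rps6, Rps18, Rpl28 and Rpl38. The windows shown for Rps4x, Rps28 and Rps19 (1 of its 3 starts) held no run longer than 4. On low protein array 2 the levels minus the control mean were -1.54 for Rps4x, -1.41 for Rps10, -1.22 for Rps6 and -0.99 for Rps18. They were 0.01 for Rpl28, 0.03 for Rpl38, 0.21 for Rps28 and 0.28 for Rps19. Genes with and without an annotated run were therefore found at both ends of the range. A run of at least 8 pyrimidines lay in the window of 32.7% of the 49 member starts and of 12.0% of the 32851 starts in the RefSeq table. These annotated starts were not set against measured transcript starts, and shorter runs were not counted. A start without such a run therefore does not show that the mRNA lacks the motif. Of the matched members more than 1 unit lower on array 2, 6 of 18 held such a run, as did 3 of the 12 that were less than 0.5 lower.

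Other promoter motifs were searched on both strands over 300 bases, 250 before and 50 after each start. The ETS-type motif CCGGAAG was found at 34.7% of member starts and 8.86% of all starts, the YY1-type motif GCCATNTT at 20.4% and 6.05%, and the letters TATAA at 24.5% and 24.9%. ETS and YY1 are transcription factors whose motifs are known from ribosomal protein promoters. Among the 18 members more than 1 unit lower on array 2, 7 held the ETS-type motif, 2 the YY1-type motif and 7 TATAA. Among the 12 less than 0.5 lower, 4 held the ETS-type motif, 3 the YY1-type motif and 2 TATAA.

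The low values of array 2 were not limited to the ribosome. Genes outside the list with a mean level above 10 (112 genes) had a median difference from control sperm of -0.97 on low protein array 2, -0.23 on array 1 and -0.24 on the caloric restriction array. The ribosomal protein genes, at -0.91 on array 2, lay close to those bright genes, and on array 1, at 0.08, they lay above them. The 15 tested translation factors and other mRNAs with a terminal oligopyrimidine motif had medians of -0.81 on array 2, -0.03 on array 1 and -0.19 under caloric restriction, and 0 of 15 passed in either direction between low protein and control sperm by limma. Eef2, the factor that moves the ribosome along the mRNA, had levels of 11.84 and 10.27 in low protein sperm, 11.48 in caloric restriction sperm and 11.83, 12.02 and 11.88 in control sperm. Eef1a1, which delivers aminoacyl-tRNA, had 13.18 and 12.40 in low protein sperm, 13.05 in caloric restriction sperm and 13.28, 13.41 and 13.37 in control sperm. Both factors were lowest on array 2.

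Genes for making ribosomes and for the mitochondrial ribosome stayed closer to the controls. The 29 tested ribosome biogenesis genes had a median difference of -0.29 on array 2, -0.05 on array 1 and 0.08 under caloric restriction. The 70 tested mitochondrial ribosomal protein genes had -0.14, -0.04 and -0.12 on the same arrays. No gene of either list passed between low protein and control sperm by limma, and the list medians of the change were -0.19 for biogenesis and -0.10 for the mitochondrial ribosome, against -0.06 for all genes. Without array 2 they were -0.05 and -0.04, against -0.08 for all genes. Both lists have weaker signals than the cytosolic ribosomal protein genes, with control sperm medians of 6.96 to 7.14.

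Cell type markers moved with the restricted diet arrays as well. Of 22 tested epididymal epithelium markers, 21 were below the control sperm mean on each of low protein array 1, low protein array 2 and the caloric restriction array, with median differences of -0.34, -0.91 and -0.51. Their summed level (log2 of the summed intensities) was 13.89 and 12.89 in low protein sperm, 13.77 in caloric restriction sperm and 14.10 to 14.46 in control sperm, against 15.18 and 15.21 in the epididymis. Spermatid and sperm markers had median differences of 0.52, 1.02 and 0.78, with 19 of 19 above the control mean on all 3 arrays. Smooth muscle markers had a summed level of 11.30 and 10.80 in low protein sperm, 11.51 in caloric restriction sperm and 11.70 to 11.86 in control sperm. Fibroblast markers had 11.75 and 11.43 in low protein sperm, 11.95 in caloric restriction sperm and 11.84 to 12.24 in control sperm. The 15 leukocyte markers had median differences of 0.17, 0.22 and 0.03, and the 4 endothelium markers had -0.20, 0.15 and -0.31. Array intensities have no true zero, so no marker can be called absent. On low protein array 1 the summed epithelial level was below each control array, and the ribosomal protein median was within the control range. On low protein array 2 both were the lowest of all sperm arrays. The part of these markers in the ribosomal protein values was not tested.

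**Figure D3:**
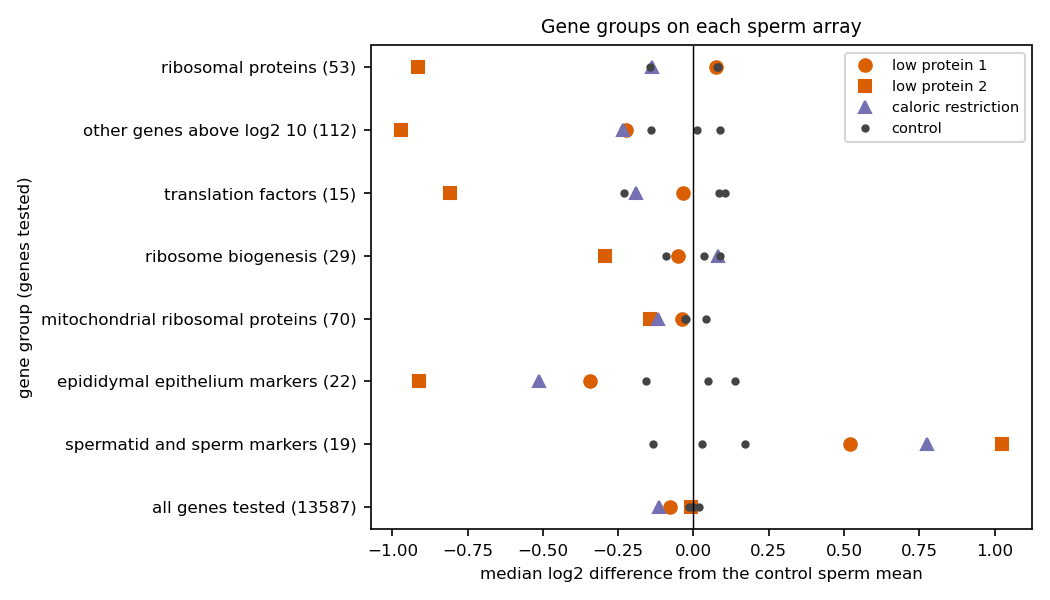
Median log2 difference from the control sperm mean (x axis) for 8 gene groups (y axis, with genes tested in brackets) on each of the 6 sperm arrays. On low protein array 2 (squares) ribosomal protein genes (-0.91), other genes above log2 10 (-0.97) and epididymal epithelium markers (-0.91) lie far to the left, and all genes tested lie at -0.01.

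Within the ribosome, the size of the difference on array 2 followed the number in the gene name. These numbers were given by position on protein gels and run broadly from large to small proteins. The pattern was noticed after the values were seen and is given as a description. Over 30 Rpl genes the Spearman correlation of the number with the difference from control sperm was 0.65 on array 2, and over 19 Rps genes it was 0.68. Rpl genes numbered up to 10 had a median difference of -1.33 (8 of 9 more than 1 unit lower), and those above 10 had -0.56 (2 of 21). Rps genes numbered up to 10 had -1.32 (7 of 7 more than 1 unit lower), and those above 10 had -0.58 (2 of 12).

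The same order was visible on the caloric restriction array, where differences were smaller. The correlations there were 0.55 for Rpl and 0.78 for Rps genes, and on low protein array 1 they were 0.12 and 0.34. All these differences share the control arrays and each gene's probe set. Array 2 minus array 1, which uses no control array, gave 0.65 and 0.69. That difference still holds array 2, so it is no separate check of the pattern. The control epididymis minus the control sperm mean gave -0.02 and 0.12. No transcript lengths were used here.

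**Figure D4:**
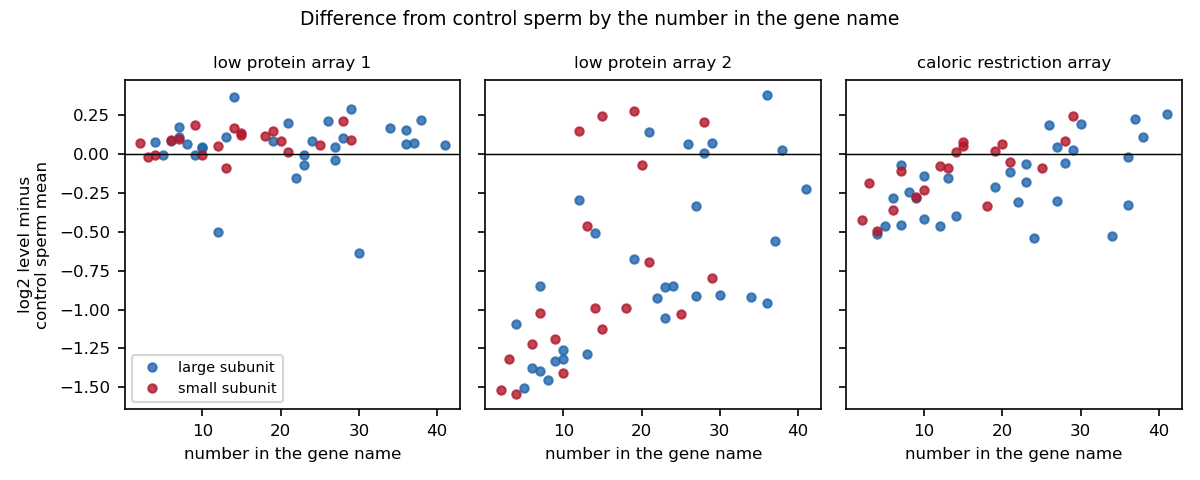
Log2 level minus the control sperm mean (y axis) against the number in the gene name (x axis) for 30 Rpl (blue) and 19 Rps (red) genes on low protein array 1, low protein array 2 and the caloric restriction array. On array 2 all Rps genes and 8 of 9 Rpl genes numbered up to 10 lie below -1, while genes with higher numbers spread from 0.38 to -1.29.

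Probe sets other than the chosen ones gave the same picture. The 155 further probe sets of the 53 genes had a median difference of -0.93 on low protein array 2 and 0.07 on array 1, and 110 of them were below all 3 controls on array 2. The 233 probe sets that name a gene of the rule together with others had medians of -0.78 on array 2, 0.10 on array 1 and -0.11 under caloric restriction. Of the 38 genes with several probe sets, 37 had a single direction over all of them on array 2. Rpl28 was the exception, with values from -0.04 to 0.04. Probe sets of ribosomal protein genes can take up signal from processed pseudogenes, which are many for this family.

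Caloric restriction was measured on 1 sperm array. The median change of the 53 genes against control sperm was -0.14, with 39 of 53 negative, and the median over all genes was -0.11. No member passed by limma in either direction (lowest adjusted p 0.456), while 5.53% of all genes passed as higher and 0.0368% as lower. No member had an unadjusted p under 0.05. The SE and p of this comparison take their spread from the low protein and control arrays, since n is 1. The largest negative changes were those of Rpl24 (-0.54 ± 0.35, SE), Rpl34 (-0.53), Rpl4 (-0.51), Rps4x (-0.50) and Rpl5 (-0.46). The largest positive changes were those of Rpl41 (0.26), Rps29 (0.24), Rpl37a (0.23), Rpl30 (0.19) and Rpl26 (0.19). With 1 array, 25 of 53 genes lay below all 3 controls, where 45.8% of all genes did, and 5 lay above them, where 27.3% of all genes did. The 5 were Rpl37a, Rpl41, Rps15, Rps28 and Rps29.

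Low protein sperm was also set against caloric restriction sperm. The median change of the members was -0.23, with 37 of 53 negative, against -0.02 over all genes. No member passed by limma (background 0.0% in each direction), and 1 of the 53 had an unadjusted p under 0.05, where 9.69% of all genes did. That gene was Rpl30, at -0.96 ± 0.31 (SE, adjusted p 0.329 by limma). It was lower on both low protein arrays, at 5.66 and 5.39, than on the caloric restriction array, at 6.49. The next largest negative changes were those of Rps29 (-0.60), Rps15a (-0.55), Rpl10a (-0.50) and Rps3 (-0.48), and the largest positive ones those of Rpl14 (0.33), Rpl21 (0.29), Rpl36 (0.29), Rps19 (0.19) and Rps12 (0.18). Without low protein array 2 the median of the members was 0.21. Without low protein array 1 it was -0.78 and 26 genes passed as lower, where 10.8% of all genes did. That fit sets 1 array against 1 array with the spread of the 3 control arrays, so it compares those arrays and not the diets. The median was -0.071 after quantile normalization and -0.048 after cyclic loess.

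With both restricted diets in 1 group, the median change against control sperm was -0.34, with 41 of 53 negative, against -0.07 over all genes. No member passed by limma (lowest adjusted p 0.205), where 2.72% of all genes passed as higher and 0.0294% as lower. The largest negative changes were those of Rps4x (-0.68), Rpl5 (-0.66), Rps2 (-0.62), Rpsa (-0.59) and Rpl7 (-0.58), and without low protein array 2 these were -0.25, -0.23, -0.18, -0.14 and -0.17. The largest positive changes were those of Rpl36 (0.17), Rps28 (0.17), Rps15 (0.16), Rpl26 (0.16) and Rps19 (0.15). Without low protein array 2 the median of the members was -0.048, with 35 of 53 negative and none passing by limma, where 4.61% of all genes passed as higher and 0.199% as lower. After cyclic loess the median was -0.034. On all 3 restricted arrays 2 genes were below every control array (Rpl12 and Rpl22, background 18.1%) and 2 were above every control array (Rps15 and Rps28, background 15.0%). Rpl22, an RNA-binding large subunit protein, had levels of 7.88 and 7.11 in low protein sperm, 7.73 in caloric restriction sperm and 7.91, 8.03 and 8.18 in control sperm. Its change was -0.46 ± 0.21 (SE, adjusted p 0.205 by limma), and -0.23 ± 0.16 without low protein array 2.

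By subunit the medians lay close to each other. The large subunit had a median difference of -0.85 on low protein array 2 and the small subunit -1.01, with 0.08 and 0.09 on array 1 and -0.18 and -0.09 under caloric restriction. For low protein against control sperm the medians were -0.43 for 33 large and -0.45 for 20 small subunit genes, and without array 2 they were 0.08 and 0.09. The 3 stalk proteins had changes of -0.70 ± 0.32 (Rplp0), -0.46 ± 0.24 (Rplp1) and -0.07 ± 0.21 (Rplp2, SE), and none passed by limma. With array 2 left out these changes were -0.08, -0.09 and 0.20. Rplp0, the stalk base that is often used as a reference gene in PCR, had levels of 11.63 and 10.41 in low protein sperm, 11.40 in caloric restriction sperm and 11.57, 11.80 and 11.78 in control sperm. Of the 7 ribosomal protein genes listed as PCR references 5 were measured here, and their median difference was -0.99 on low protein array 2 and 0.08 on array 1. The 10 measured genes of the Diamond-Blackfan anemia list had -0.56, 0.10 and, under caloric restriction, 0.04.

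The X-linked members Rpl10, Rpl36a and Rps4x had a median difference of -1.26 on low protein array 2, 0.04 on array 1 and -0.42 under caloric restriction. Rpl36a had levels of 9.55 and 8.53 in low protein sperm, 9.16 in caloric restriction sperm and 9.18, 9.58 and 9.71 in control sperm. Germ cell copies of X-linked ribosomal protein genes lie outside the name rule, and those of Rpl10 (Rpl10l) and Rpl39 (Rpl39l) were measured. Rpl39l had 7.42 and 7.90 in low protein sperm, 8.30 in caloric restriction sperm and 6.70, 6.78 and 6.41 in control sperm, against 4.56 in low protein and 4.35 in control epididymis. Rpl10l had 7.27 and 8.22 in low protein sperm, 8.55 in caloric restriction sperm and 7.09, 7.13 and 7.06 in control sperm, against 6.42 in low protein and 6.25 in control epididymis. Both were above every control array on all 3 restricted arrays, as were 15.0% of all genes tested. Their sign was opposite to that of Rpl10 on low protein array 2 and under caloric restriction.

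By limma both germ cell copies passed as higher on the 1 caloric restriction array, with SE and p resting on the spread of the low protein and control arrays: Rpl39l by 1.67 ± 0.26 (SE, adjusted p 0.00966) and Rpl10l by 1.46 ± 0.34 (adjusted p 0.0466). Without control array 1, 2 or 3 the call of Rpl10l was lost, with adjusted p of 0.118, 0.135 and 0.155, while that of Rpl39l held at 0.0314, 0.0386 and 0.0489 (limma). The call of Rpl10l was also lost after quantile normalization (adjusted p 0.124) and with a 50% filter (0.064). Neither passed between low protein and control sperm, where the change of Rpl39l was 1.03 ± 0.21 (adjusted p 0.0847) and that of Rpl10l 0.65 ± 0.27 (adjusted p 0.186), although Rpl39l passed after cyclic loess (adjusted p 0.049, limma). Without low protein array 1 the changes there were 1.27 for Rpl39l and 1.12 for Rpl10l. Without low protein array 2 they were 0.79 and 0.17. Each of these fits holds only 1 low protein array. With both restricted diets in 1 group, Rpl39l passed as higher (1.24 ± 0.23, SE, adjusted p 0.0411, limma) and Rpl10l did not (0.92 ± 0.29, adjusted p 0.109). That call of Rpl39l was lost without control array 1, 2 or 3 (adjusted p 0.0997, 0.219 and 0.251, limma). Between sperm and epididymis Rpl39l was higher by 2.67 ± 0.23 (adjusted p 7.48e-05) and Rpl10l by 1.07 ± 0.25 (adjusted p 0.00722, limma). The call of Rpl10l was lost without the low protein epididymis array (adjusted p 0.115). Their direction was that of the spermatid and sperm markers above. Rps27l, a copy of Rps27 that is not specific to germ cells, had 7.35 and 7.05 in low protein sperm, 6.93 in caloric restriction sperm and 7.25, 7.56 and 7.20 in control sperm, with no test passed. Rps4l had 7.88 and 7.71 in low protein sperm, 8.06 in caloric restriction sperm and 7.77, 7.91 and 8.00 in control sperm, with no test passed. Rpl39l and Rpl10l belong to 8 tested variants and fusions outside the name rule. Their median change in low protein against control sperm was -0.08, with 6 of 8 negative. In caloric restriction against control sperm it was 0.07, with 4 of 8 negative.

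The second contrast set sperm against epididymal tissue in a model with a term for tissue and one for diet, in which 5 sperm and 2 epididymis arrays set the tissue difference and the caloric restriction array adds nothing to it. By limma 14 of the 53 genes passed, 5 higher in sperm and 9 lower. The background was 18.4% of all genes higher and 30.1% lower, so 9.43% and 17.0% of the members were below it in both directions. The median change was -0.30, with 37 of 53 negative, against -0.08 over all genes. By subunit, 2 large and 3 small subunit genes passed as higher and 7 large and 2 small subunit genes as lower. Single genes thus differed between the tissues in both directions.

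Higher in sperm were Rpl37a (1.08 ± 0.20, SE, adjusted p 0.00269), Rps19 (1.04 ± 0.15, adjusted p 0.00081), Rpl26 (1.02 ± 0.16, adjusted p 0.00133), Rps12 (0.54 ± 0.14, adjusted p 0.0136) and Rps28 (0.41 ± 0.13, adjusted p 0.0315), all by limma. Rpl37a had levels of 11.03 and 10.40 in low protein sperm, 11.19 in caloric restriction sperm and 10.79, 10.93 and 11.15 in control sperm, against 9.77 in low protein and 9.75 in control epididymis. Rps19 had 8.19 to 8.63 on the 6 sperm arrays, against 7.37 in low protein and 7.45 in control epididymis. Rpl26, which binds the p53 mRNA in addition to its place in the 60S subunit, had 8.75 to 9.23 in sperm, against 8.07 and 7.98 in the epididymis. All 3 genes had every sperm array above both epididymis arrays, low protein array 2 included.

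Lower in sperm were Rpl30 (-1.44 ± 0.25, SE, adjusted p 0.0018), Rpl4 (-1.20 ± 0.29, adjusted p 0.00901), Rpl23 (-0.96 ± 0.23, adjusted p 0.00938), Rpl27 (-0.93 ± 0.15, adjusted p 0.00142) and Rps21 (-0.83 ± 0.27, adjusted p 0.0321), by limma. Rplp2 (-0.83), Rpl38 (-0.82), Rps18 (-0.81) and Rpl22 (-0.74) also passed. Rpl30 had 5.39 to 6.65 on the 6 sperm arrays, against 7.40 in low protein and 7.34 in control epididymis. Rpl4, which reaches into the exit tunnel of the 60S subunit, had 10.14 and 8.97 in low protein sperm, 9.55 in caloric restriction sperm and 9.89, 10.12 and 10.18 in control sperm, against 11.04 in low protein and 11.02 in control epididymis. Rpl27 had 8.87 to 9.28 in sperm, against 10.09 and 10.00 in the epididymis. Rpl38, which in mouse embryos is needed for the translation of Hox mRNAs, had 9.82 to 10.16 in sperm, against 10.78 and 10.84.

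Over the whole list, all 6 sperm arrays were above both epididymis arrays for 8 genes (background 24.8%) and below both for 19 (background 35.6%). The 8 were Rpl26, Rpl36, Rpl37a, Rps12, Rps15, Rps19, Rps20 and Rps28. Rpl10 and Rpl36a had lower levels in sperm on all arrays and did not pass. Of the 38 genes with several probe sets, 33 had 1 direction between sperm and epididymis over all of them. The other 5 were Rpl7a, Rpl9, Rps9, Rps14 and Rpsa, and the probe sets of Rpsa ran from -0.48 to 0.76. Of the 5 probe sets of Rpsa only 1 was lower in sperm, and it is the one that stood for the gene.

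The tissue result depended on the arrays and the scaling. Without low protein sperm array 2, 9 genes passed as higher and 11 as lower, and the median was -0.07, where 20.1% of all genes passed as higher and 33.2% as lower. Without low protein sperm array 1, 4 passed as higher and 14 as lower (all genes 20.2% and 30.7%). Without the low protein epididymis array 3 passed each way (all genes 7.76% and 12.5%), and without the control epididymis array 3 passed as higher and 6 as lower (all genes 13.3% and 23.8%). After quantile normalization of the deposited values the median turned to 0.14, with 10 genes (18.9%) higher and 4 (7.55%) lower, against 18.6% and 20.8% of all genes. After cyclic loess it was 0.21, with 16 (30.2%) higher and 6 (11.3%) lower, against 25.7% and 24.9% of all genes. Rpl26, Rpl27, Rpl30, Rpl37a and Rps19 passed in the same direction under all 18 alternatives tried. Rpl4, Rpl23, Rplp2, Rpl22, Rps12, Rps18, Rps21 and Rps28 did not pass without the low protein epididymis array, and Rpl22, Rps12, Rps18, Rps21 and Rps28 did not pass without the control epididymis array either. Rpl22, Rpl38, Rps18 and Rps21 did not pass after quantile normalization or cyclic loess, and Rpl23 did not pass after quantile normalization.

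**Figure D5:**
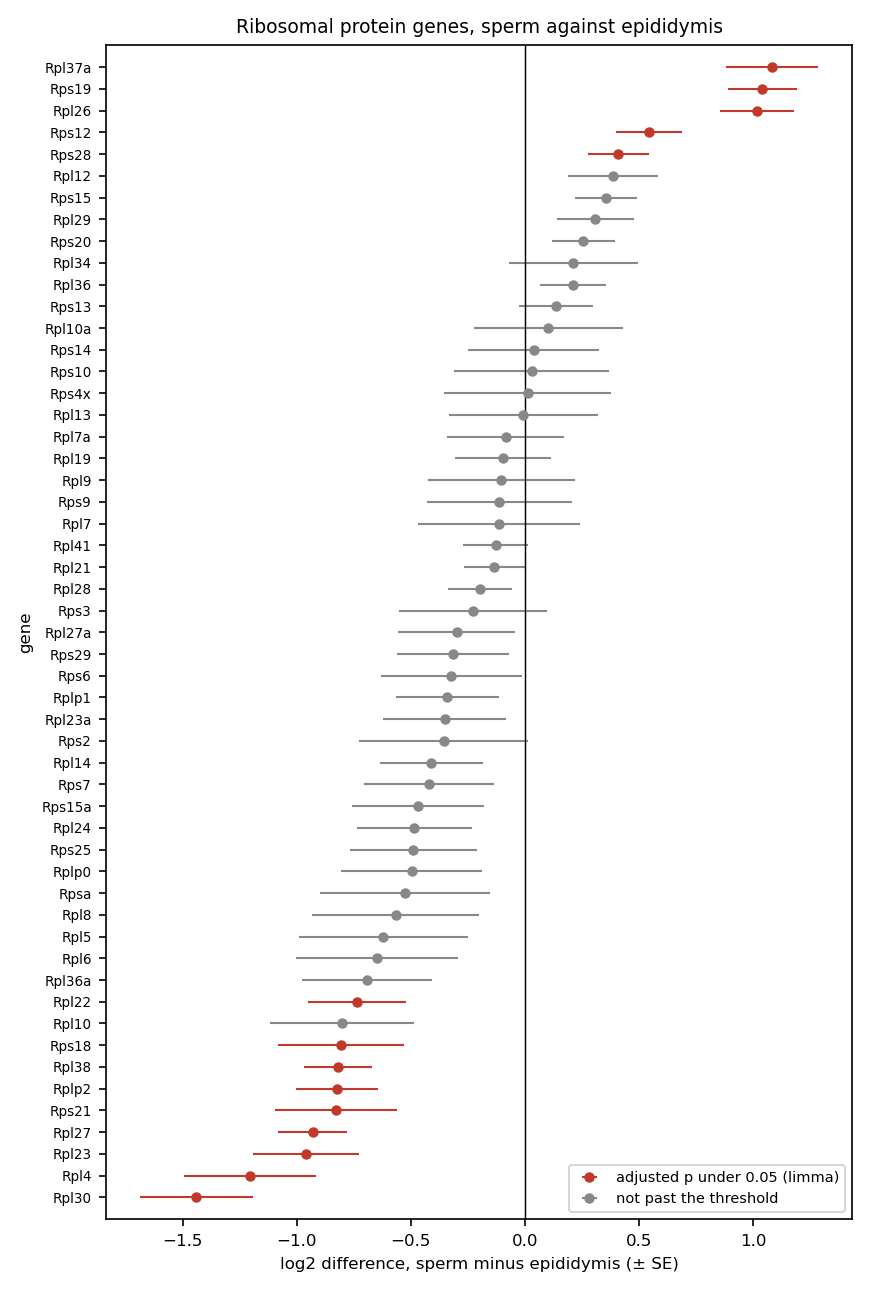
Log2 difference, sperm minus epididymis (x axis), for each of the 53 ribosomal protein genes (y axis), with bars of 1 moderated standard error from limma over the 5 sperm and 2 epididymis arrays that set the difference. Genes past an adjusted p of 0.05 are red, 5 on the right (Rpl37a, 1.08, at the top) and 9 on the left (Rpl30, -1.44, at the bottom).

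Other parts of the translation machinery were set against the same background of 30.1% of all genes lower and 18.4% higher in sperm. Of the 15 translation factors and terminal oligopyrimidine mRNAs tested, 8 (53.3%) were lower in sperm and 0 higher by limma, with a median change of -0.81. Of 29 ribosome biogenesis genes 15 (51.7%) were lower and 1 was higher, with a median of -0.45. Of 70 mitochondrial ribosomal protein genes 25 (35.7%) were lower and 6 (8.57%) higher, with a median of -0.27, so their share of lower calls was near that of all genes. The other 112 genes with a mean level above 10 had a median of -0.70, with 48 (42.9%) lower and 31 (27.7%) higher. After quantile normalization the medians of these 4 groups were -0.38, -0.31, -0.17 and -0.28, and after cyclic loess -0.28, -0.28, -0.16 and -0.19. Without low protein sperm array 2 the medians were -0.52, -0.41, -0.25 and -0.38. In the same order, 26.7%, 34.5%, 21.4% and 35.7% passed as lower after quantile normalization, against 20.8% of all genes. As higher, 6.67%, 0.0%, 10.0% and 30.4% passed, against 18.6%. After cyclic loess 33.3%, 37.9%, 21.4% and 38.4% passed as lower, against 24.9% of all genes. As higher, 6.67%, 13.8%, 15.7% and 30.4% passed there, against 25.7%.

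In the epididymis itself the low protein and the control array differed little for these genes. With 1 array per group there is no test and no replicate check. The median difference of the members was 0.01, and 41 of 53 differences were within 0.1. The SD over members was 0.13, against 0.19 over all genes. The largest differences were those of Rpl14 (-0.40), Rpl12 (-0.40), Rps15a (-0.32), Rpl22 (-0.22) and Rpl7a (-0.20) on the low side and Rpl34 (0.31), Rpl29 (0.27), Rps21 (0.15), Rpl5 (0.12) and Rpl36a (0.11) on the high side. No member differed by more than 0.5 in either direction, where 0.81% of all genes were above and 1.04% below that size. Rps4x had 10.92 in the low protein and 10.94 in the control sample, and Rpl5 had 11.30 and 11.18.

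The low protein effect in sperm minus that in the epididymis had a median of -0.47 over the members, with 43 of 53 negative, against -0.06 over all genes. By limma no member passed this test of the difference (background 0.0% in each direction, lowest member adjusted p 0.875), and no member had an unadjusted p under 0.05. The largest negative values were those of Rpl5 (-0.88), Rpl30 (-0.83), Rpl8 (-0.80), Rps4x (-0.76) and Rplp0 (-0.74), and the largest positive ones those of Rpl14 (0.33), Rps19 (0.30), Rpl36 (0.29), Rpl38 (0.18) and Rps28 (0.18). Without low protein sperm array 2 the median was 0.05, and without low protein sperm array 1 it was -0.94 with 21 genes passing as lower, where 7.87% of all genes passed as lower and 4.2% as higher. That fit has 1 array in each group other than control sperm and takes its spread from the control sperm arrays.

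The scaling between arrays also bore on the values of low protein array 2. The members' median difference from control sperm there was -0.91 as deposited, -0.94 after median centring, -0.67 after quantile normalization and -0.23 after cyclic loess, which removes a difference that varies with signal strength. The count of members more than 1 unit lower was 21, 23, 13 and 0 under the same settings. The other genes above a level of 10 had -0.97 as deposited, -0.70 after quantile normalization and -0.09 after cyclic loess. The order by the number in the name was kept on array 2 after cyclic loess, with a correlation of 0.60 for Rpl and 0.57 for Rps genes. On low protein array 1 the members' median stayed between 0.06 and 0.14 under all 4 scalings, and on the caloric restriction array it was -0.20 to 0.06.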

How the data were processed

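The authors deposited log2 intensities, 1 per probe set and array, which per the submitters' processing notes come from RMA. The RMA version is not given in the sources used, nor is the annotation. RMA, as usually run, equalizes the signal distributions, so a change in total RNA is not visible. The deposited distributions were not identical. Quantile normalization still moved the members' median difference from control sperm on low protein array 2 from -0.91 to -0.67. The log2 scale was read from the values (1.17 to 14.5). Of 33660 probe sets, 21222 carried 1 gene, while 10897 had no name here. RefSeq (GRCm38.p6) gave current symbols. Of each gene the probe set with the highest mean was kept. Genes were tested with limma 3.58.1 in R 4.3.3 (lmFit, eBayes, two-sided), with Benjamini-Hochberg adjustment over 13587 genes at 0.05; the fits were tested on simulated data. Groups came from sample titles. No 2 arrays held the same values. Described genes were the 5 largest and 5 smallest changes per comparison, the 3 brightest and dimmest probe sets, stalk and X-linked genes, and named genes outside the rule. Rpl22, Rps4l and genes named for a small count were chosen after their values were seen. Members and lists were chosen with earlier results of these data known. Other scalings, filters, probe set rules, priors and thresholds and leaving out each array were tried. Start windows and promoters are RefSeq's.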

Additional observations from a re-analysis of the deposited data

How the results depend on the processing

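The number of arrays and the stray second low protein sperm array set the limits. Of the results on the ribosomal protein genes as a group, these moved under another setting, and the cause was not tested. For sperm against epididymis the median change of -0.30 became 0.14 after quantile normalization and 0.21 after cyclic loess. The 5 genes higher became 10 (18.9%, all genes 18.6%) and 16 (30.2%, all genes 25.7%) under these. They were fewer with an eBayes trend or a threshold of 0.01. The 9 lower became 4 (7.55%, all genes 20.8%) after quantile normalization. Leaving out single arrays gave 3 to 9 genes higher and 3 to 14 lower. The low protein effect in sperm minus that in the epididymis had a median of -0.039 after cyclic loess. Leaving out each array gave medians of -0.94 to 0.052 and 0 to 21 genes lower for that difference. For low protein against control sperm leave-outs gave -0.91 to 0.076 and 0 to 36 lower, for low protein against caloric restriction sperm -0.78 to 0.21 and 0 to 26 lower, and for the restricted diets together 0 to 1 lower. Medians that moved by less than the spread between arrays but over 1.5 times, with cyclic loess, were those of low protein against control sperm (-0.04), the restricted diets together (-0.034) and low protein against caloric restriction sperm (-0.048, and -0.071 after quantile normalization); caloric restriction against control turned to 0.061. No paired analysis was possible because the labels give no shared replicate numbers.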
